A study of Homo sapiens with 6 samples.

Results

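The genes described here are 10 transporters that carry amino acids across the plasma membrane, SLC6A14, SLC7A5, SLC1A5, SLC38A1, SLC38A2, SLC7A1, SLC1A4, SLC6A9, SLC43A1 and SLC1A1. They were found by symbol among the 28395 genes of the deposited comparison, and all 10 were present once. They were picked from the SLC1, SLC6, SLC7, SLC38 and SLC43 families, leaving out cystine import, and with the fold changes and p-values of this same comparison known, so they count as chosen by its measured values. Their values are therefore a description, and the test results printed beside them are no independent support for a change. RNA was sequenced from A375 cells, an established human melanoma line labelled wild type, cultured for 6 h with 0.01% ozonated olive oil (OZO) or with 0.01% olive oil (OLO), the control. Each group had 3 libraries, and all cells grew in the same medium with serum. The labels do not say whether the libraries came from separate cultures, while a legend of the study calls the experiments behind the A375 transcriptome independent.

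The values per gene are those of the authors' own fit of OZO against OLO with limma-voom, and single libraries were not analysed here. A log2 fold change above 0 is higher in OZO, its standard error (SE) was its size divided by its moderated t, and a gene was called at an adjusted p-value under 0.05. From the lowest mean of the table, the geometric mean of the library sizes came to 18409903 fragments. Implied reads below are a group's mean on the log scale at that library size, with voom's 0.5 taken off, and the size of the single libraries is not known here. Genes with a mean of 10 implied reads or more are called expressed genes. Of 7 melanoma and melanocyte markers none was called. SOX10 and MITF had means of 919 and 499 implied reads, while TYR, the pigment enzyme, had no read. The means were 50.98 for S100B, 36.59 for MLANA, 5.75 for PMEL and 4.74 for DCT. Of 10 markers of keratinocytes, fibroblasts, immune and endothelial cells, none was called, and the highest mean was 77.5 implied reads, for KRT14. That exceeded the means of S100B, MLANA, PMEL, DCT and TYR.

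Plasma membrane transporters of different kinds work together to supply the cell with amino acids. Sodium-coupled transporters such as SLC38A1 and SLC38A2 load small neutral amino acids, glutamine among them, into the cell against a gradient. Exchangers such as SLC7A5 and SLC1A5 then trade one amino acid for another, so that leucine and other essential amino acids enter while glutamine or another substrate leaves. Tumour cells often carry much of both kinds, and leucine that enters this way is sensed by mTORC1, a kinase complex that drives growth. Several of these genes, SLC7A5, SLC7A1, SLC38A2 and SLC1A4 among them, are known targets of ATF4, the transcription factor that cells make when amino acids run short.

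The starts of the 3 called genes are shown first, because these carry the fold changes that differ most from 0 against their error. Each line gives the 100 bases before the RefSeq start in GRCh38.p14, 5′ to 3′ on the gene's strand, with TATAA in capitals. SLC38A2 lies at chr12:46372774-46372873 on the minus strand, SLC6A9 at chr1:44031463-44031562 on the minus strand and SLC6A14 at chrX:116436506-116436605 on the plus strand.
SLC38A2: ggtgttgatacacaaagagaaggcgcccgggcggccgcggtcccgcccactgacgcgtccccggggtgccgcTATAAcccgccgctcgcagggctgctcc
SLC6A9: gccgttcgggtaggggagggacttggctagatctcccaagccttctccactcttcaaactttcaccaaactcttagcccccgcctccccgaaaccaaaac
SLC6A14: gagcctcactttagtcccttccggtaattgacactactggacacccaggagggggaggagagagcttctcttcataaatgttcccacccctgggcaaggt
The match in SLC38A2 begins 28 bases before the start. The stretches of SLC6A9 and SLC6A14 do not hold these letters. In the whole windows, from 250 bases before to 50 bases after a start, TATAA on the gene's strand was found in 14.8% of all 35116 windows and in 3 of the 15 windows of the 10 transporters. The other two genes with a match, SLC38A1 and SLC43A1, were not called.

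Of the 10 transporters, 1 rose, 2 fell and 7 were not called. Of all genes in the comparison, 7.04% were called, 3.98% higher and 3.06% lower, and of the 13773 expressed genes 13.6% were called. Because the transporters were picked on this comparison, nothing is read from their count against these shares. Their median log2 fold change was -0.19, beside 0.19 over all genes and -0.01 over expressed genes. With SLC6A14 at the bound given below the median could not change, because SLC6A14 stays the lowest of the 10. The fold changes were small, since 8 of the 10 lay within 1.5-fold of equality in either direction, and the 95% interval included 0 for the 7 that were not called.

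**Figure D1:**
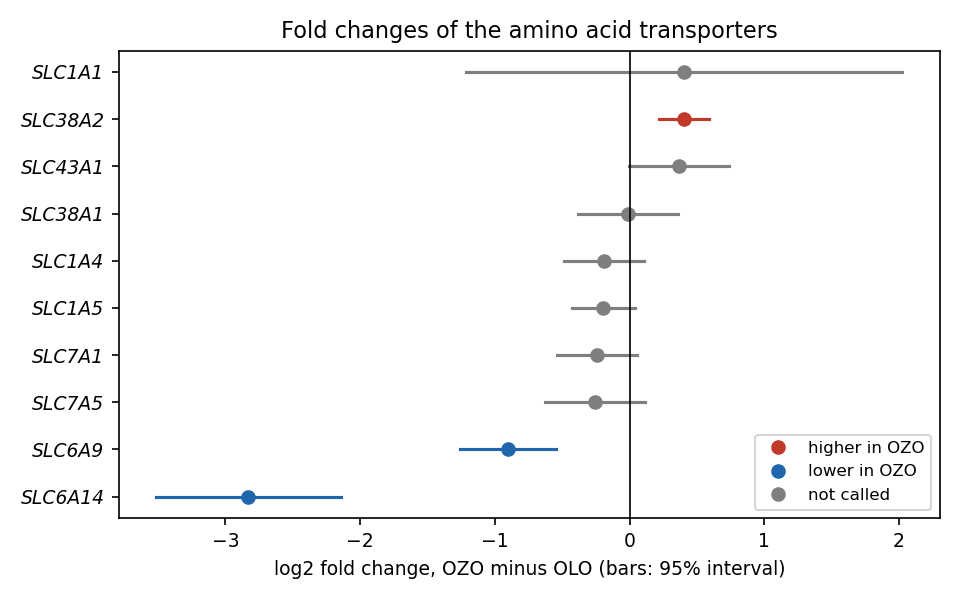
Log2 fold change of each transporter between OZO and OLO (x axis), with its 95% interval from the moderated t as a bar and each gene on its own line. SLC38A2 at 0.41 lies to the right of 0, SLC6A9 at -0.90 and SLC6A14 at -2.83 lie to the left, and the bars of the other 7 cross 0; the point of SLC6A14 is the fitted value and not a bound.

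Among the sodium-coupled loaders, SLC38A2 rose and its close relative SLC38A1 was not called. SLC38A2 (chromosome 12, 46358188 to 46372773, Gene 54407), which encodes SNAT2, a carrier of alanine, serine and glutamine, stood at 15379 implied reads under OLO and 20365 under OZO. Its log2 fold change was 0.41 (SE 0.07, 95% interval 0.22 to 0.59) with an adjusted p-value equal to 0.0401 in the deposited fit, which is 1.32-fold higher in OZO. This was the smallest standard error of the 10 genes. Genes without any read carried a log2 fold change of 0.33 in the same direction in this fit. The call ended when fold changes were taken relative to the all-gene median, which left 0.22 with an adjusted p-value equal to 0.144 in the limma-voom values. That median takes in the genes without any read. Relative to the median of expressed genes SLC38A2 stayed called, at 0.41 with an adjusted p-value equal to 0.0387 in the limma-voom values.

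SLC38A1 (chromosome 12, 46183063 to 46269043, Gene 81539) encodes SNAT1, which takes up much the same amino acids. Implied reads were 8963 under OLO and 8885 under OZO. The log2 fold change was -0.01 (SE 0.15, adjusted p-value 0.96 in the deposited fit), and its 95% interval of -0.39 to 0.36 leaves room for a difference of either sign. Both genes lie on the minus strand, and 89144 bases separate them. SLC38A4, the next gene of the family on the chromosome, lies a further 391987 bases on. It is named after its value was seen and was weakly read, with 20.4 implied reads under OLO and 21.8 under OZO. Whether SLC38A1 and SLC38A2 differed from each other in their response was not tested.

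SLC6A14 showed the largest fitted change of the 10 genes and the fewest reads. It encodes a sodium- and chloride-coupled transporter of broad range that takes neutral and cationic amino acids and is known from lung and gut epithelium. SLC6A14 (chromosome X, 116436606 to 116461458, Gene 11254) stood at 21.8 implied reads under OLO and 2.64 under OZO, where it was under the floor of 3 reads. With OZO set at 3 reads and the OLO mean held fixed, it was 6.38-fold lower in OZO. This bound allows for the floor only and covers no error of either mean. The fitted log2 fold change was -2.83 (SE 0.27), and its interval from the moderated t ran from -3.51 to -2.15. That interval also takes in drops smaller than 6.38-fold. The adjusted p-value was 0.0103 in the deposited fit. Its mean of 7.88 reads was the only one of the 10 under 10 reads.

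For so weakly read a gene the mean carries one more exact fact. The product of 2 times each count plus 1 over the 6 libraries was 22166375, and its largest prime factor is 47, so at least 1 library held at least 23 reads of SLC6A14. The counts of the single libraries do not follow from this product. The value of SLC6A14 lay in the opposite direction to the 0.33 of genes without any read.

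SLC6A9 was the other gene that fell. It encodes GlyT1, which takes up glycine, a building block of glutathione. SLC6A9 (chromosome 1, 43996483 to 44031462, Gene 6536) stood at 160 implied reads under OLO and 85.8 under OZO. Its log2 fold change was -0.90 (SE 0.14, 95% interval -1.26 to -0.54) with an adjusted p-value equal to 0.0296 in the deposited fit, which is 1.87-fold lower in OZO. Of the expressed genes, 3.5% had a lower fold change.

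**Figure D2:**
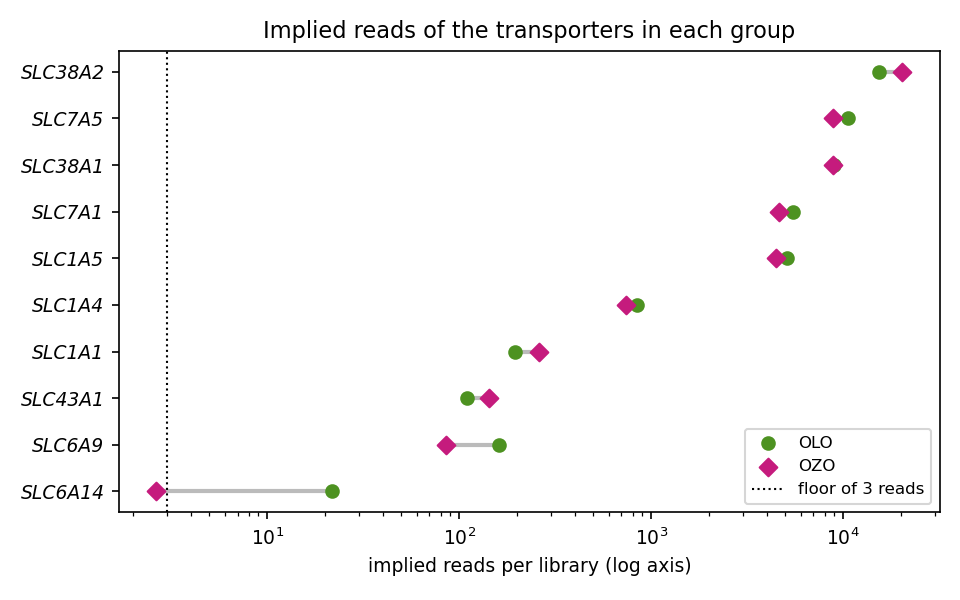
Implied reads per library (x axis, log scale) of each transporter in OLO (circles) and OZO (diamonds), ordered by mean, with the floor of 3 reads as a dotted line. The values run from 2.64 reads for SLC6A14 in OZO to 20365 for SLC38A2 in OZO, and the pairs lie close together except for SLC6A14 and SLC6A9.

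The 3 exchangers of neutral amino acids all had fold changes a little under 0 and none was called. SLC7A5 (chromosome 16, 87830023 to 87869507, Gene 8140) encodes LAT1, the main entry of leucine in many tumours. Implied reads were 10629 under OLO and 8884 under OZO, with a log2 fold change of -0.26 (SE 0.14, adjusted p-value 0.25 in the deposited fit). Its 95% interval of -0.63 to 0.11 excludes a 2-fold difference in either direction.

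SLC1A5 (chromosome 19, 46774883 to 46788594, Gene 6510) encodes ASCT2, an exchanger that brings glutamine into many tumour cells. Implied reads were 5125 under OLO and 4474 under OZO, with a log2 fold change of -0.20 (SE 0.09) and an adjusted p-value equal to 0.249 in the deposited fit. SLC1A4 (chromosome 2, 64988479 to 65023865, Gene 6509) encodes ASCT1, which prefers serine, alanine and cysteine. Implied reads were 842 under OLO and 738 under OZO, with a log2 fold change of -0.19 (SE 0.12, adjusted p-value 0.288 in the deposited fit). The 95% intervals were -0.43 to 0.04 for SLC1A5 and -0.49 to 0.11 for SLC1A4.

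The cationic transporter was not called either. SLC7A1 (chromosome 13, 29509414 to 29595688, Gene 6541) encodes CAT-1, which brings in arginine and lysine. Implied reads were 5460 under OLO and 4623 under OZO. The log2 fold change was -0.24 (SE 0.12, 95% interval -0.54 to 0.06) and the adjusted p-value was 0.249 in the deposited fit.

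The facilitative transporter SLC43A1 and the glutamate transporter SLC1A1 had positive values that were not called. SLC43A1 (chromosome 11, 57484534 to 57515702, Gene 8501) encodes LAT3, which lets large neutral amino acids pass without sodium or exchange. Implied reads were 110 under OLO and 142 under OZO, with a log2 fold change of 0.37 (SE 0.14, 95% interval -0.01 to 0.74, adjusted p-value 0.249 in the deposited fit). SLC1A1 (chromosome 9, 4490468 to 4587469, Gene 6505) encodes EAAT3, which takes up glutamate, aspartate and cysteine. Implied reads were 196 under OLO and 260 under OZO, and its log2 fold change of 0.41 was the same to 2 decimals as that of SLC38A2. The standard error of SLC1A1, 0.63, was the largest of the 10 genes, its 95% interval ran from -1.21 to 2.03 and its adjusted p-value was 0.699 in the deposited fit. The spread between libraries at SLC1A1 thus leaves its direction undetermined.

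Levels between genes were compared per length, as CPM (counts scaled to library size) per kilobase of the canonical GENCODE transcript and as a mean over both groups. SLC38A2 was highest at 200 and exceeded 98.1% of the 13313 expressed genes whose length was known. SLC7A5 at 116, SLC1A5 at 90.3, SLC38A1 at 59.9 and SLC7A1 at 37.2 followed. SLC1A4 at 9.39 exceeded 55.7% of those genes.

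The remaining transporters were far lower on the same scale of CPM per kilobase. SLC1A1 stood at 3.32, SLC43A1 at 2.72, SLC6A9 at 1.997 and SLC6A14 at 0.1. The spread of a level over libraries is not known here, so neighbours in this order cannot be told apart by it. The called genes stood at both ends of the order, with SLC38A2 at the top and SLC6A9 and SLC6A14 at the bottom.

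**Figure D3:**
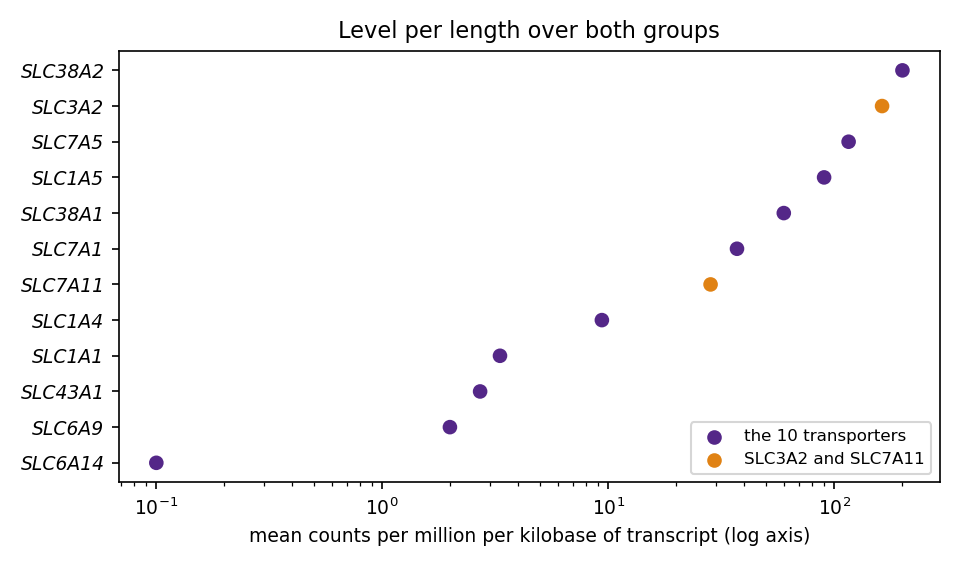
Mean level over both groups in CPM per kilobase of transcript (x axis, log scale) of the 10 transporters and of SLC3A2 and SLC7A11. The transporters span 0.1 for SLC6A14 to 200 for SLC38A2, and SLC3A2, the heavy chain of SLC7A5, lies at 163 between SLC38A2 and SLC7A5. On its longest transcript SLC3A2 would lie at 108, below SLC7A5.

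SLC7A5 reaches the membrane only in a pair with the heavy chain encoded by SLC3A2, which also pairs with SLC7A11, the light chain of the cystine importer. SLC3A2 stood at 5333 implied reads under OLO and 5993 under OZO, with a log2 fold change of 0.17 (SE 0.12, adjusted p-value 0.373 in the deposited fit). SLC7A11 stood at 4149 implied reads under OLO and 6127 under OZO, with a log2 fold change of 0.56 (SE 0.20, adjusted p-value 0.217 in the deposited fit). Neither gene was called.

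A list of 31 other plasma membrane amino acid transporters of these and related families, SLC7A11 among them, was drawn up by function. Of these 31 genes, 2 rose, 0 fell and 29 were not called, against shares of 3.98% higher and 3.06% lower over all genes. At an unadjusted p-value under 0.05 in the limma-voom fit, 4 were higher and 1 was lower, beside 10.1% higher and 9.61% lower over all genes. Only 11 of the 31 had 10 or more mean reads, and 5 had no read in any library. The median log2 fold change was 0.22 over those 11, beside -0.01 over all expressed genes.

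Both genes that rose belong to the SLC6 family, as do the 2 transporters that fell. SLC6A6, which encodes the taurine transporter, stood at 2464 implied reads under OLO and 4826 under OZO. Its log2 fold change was 0.97 (SE 0.07, adjusted p-value 0.00732 in the deposited fit), which is 1.96-fold higher in OZO. SLC6A15, which encodes a sodium-coupled transporter of branched-chain amino acids and proline, stood at 1795 implied reads under OLO and 2658 under OZO. Its log2 fold change was 0.57 (SE 0.10, adjusted p-value 0.0401 in the deposited fit). Relative to the all-gene median it was no longer called, with an adjusted p-value equal to 0.0839 in the limma-voom values. Relative to the median of expressed genes SLC6A15 stayed called, with an adjusted p-value equal to 0.0390 in the limma-voom values. SLC6A6 stood at 28.8 and SLC6A15 at 24.7 CPM per kilobase (18.4 on its longest transcript), each above SLC6A9 and SLC6A14 on that scale.

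**Figure D4:**
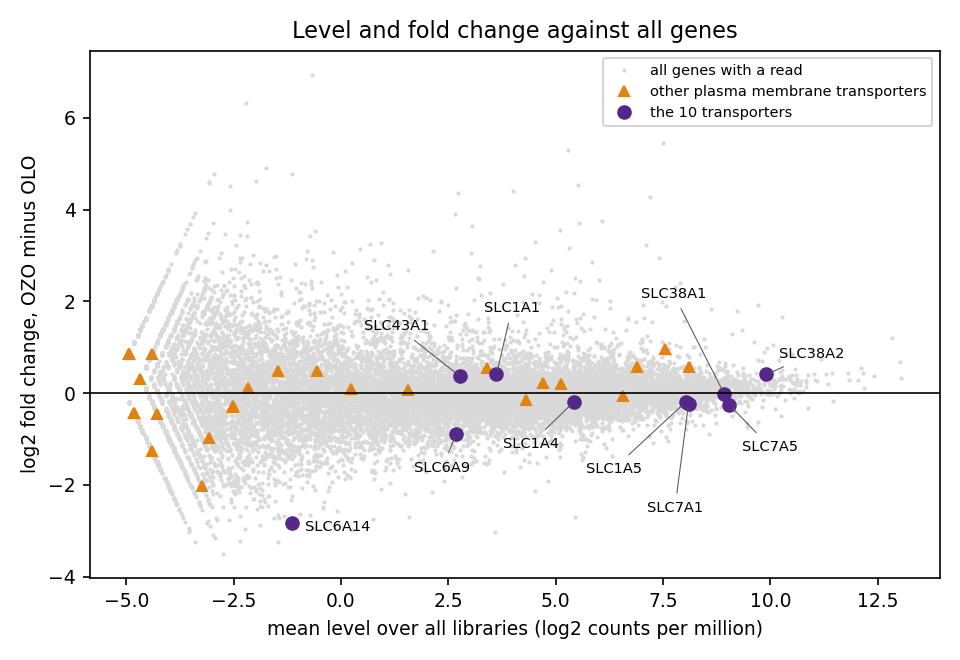
Mean level over all libraries in log2 CPM (x axis) against log2 fold change between OZO and OLO (y axis) for all genes with a read (grey), the 10 transporters (circles) and the other plasma membrane transporters (triangles). SLC38A2 lies toward the right end of the cloud and SLC6A9 at -0.90 lies in its lower part. SLC6A14 at -2.83 lies near the lower edge of the cloud, among weakly read genes.

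Genes that act on these transporters or on what they bring in were counted in 5 further lists of 73 genes. Of these 73 genes 6 were called, beside 7.04% of all genes and 13.6% of expressed genes. The shares to set beside each list are 3.98% higher and 3.06% lower over all genes. Among 10 partners and regulators 0 rose and 2 fell. SGK1, a kinase known to raise the surface level of several amino acid transporters, went from 729 implied reads under OLO to 405 under OZO. Its log2 fold change was -0.85 (SE 0.07, adjusted p-value 0.0087 in the deposited fit). ARL6IP5, which encodes a binding partner that restrains EAAT3, the product of SLC1A1, had a log2 fold change of -0.43 (SE 0.06, adjusted p-value 0.0223 in the deposited fit). NEDD4 and NEDD4L, ubiquitin ligases that remove transporters from the membrane, had log2 fold changes of -0.28 and -0.35, were not called and are named after their values were seen.

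Inside the cell, none of the 10 lysosomal amino acid transporters was called in the limma-voom fit, and 3 were lower and 0 higher at an unadjusted p-value under 0.05, beside the same 9.61% and 10.1% of all genes. Of 11 mitochondrial carriers 1 fell, SLC25A12, a carrier that exchanges aspartate for glutamate, with a log2 fold change of -0.60 (SE 0.09, adjusted p-value 0.0261 in the deposited fit). Of 23 genes through which mTORC1 senses amino acids 2 rose and 0 fell. These were FLCN and FNIP1, partners in a complex that acts on the Rag GTPases. FLCN had a log2 fold change of 0.81 (SE 0.06, adjusted p-value 0.00736) and FNIP1 had 0.79 (SE 0.10, adjusted p-value 0.0189), both in the deposited fit.

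Of 19 enzymes that use imported amino acids 1 rose and 0 fell. SAT1, which acetylates the polyamines spermidine and spermine, stood at 392.3 implied reads under OLO and 2853 under OZO. Its log2 fold change was 2.86 (SE 0.09, adjusted p-value 0.00163 in the deposited fit), or 7.27-fold higher in OZO. ASNS, which makes asparagine, had a log2 fold change of -0.02 with an adjusted p-value equal to 0.929 in the deposited fit. It is named here after its value was seen.

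**Figure D5:**
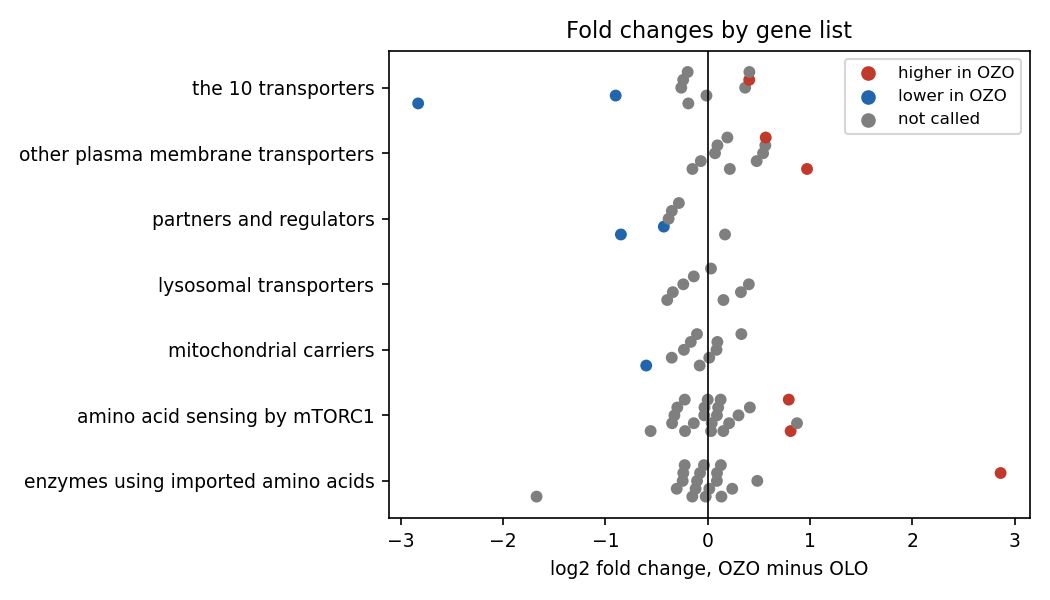
Log2 fold change between OZO and OLO (x axis) of each gene in 7 lists (rows), for genes that had 10 or more mean reads or were called. The 2 called other transporters lie right of 0, the 2 called partners left of it, and SAT1 at 2.86 stands apart among the enzymes; the vertical scatter within a row has no meaning.

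The promoter windows of the 10 genes, 15 in all because some genes have several RefSeq starts, were searched for 3 further letter patterns on both strands, which for the palindrome CACGTG read the same. None of the matches overlapped another. The CARE pattern TGATGNAA, the core that ATF4 binds with a C/EBP partner, was found in 4 of the 15 windows, beside 3.62% of all windows. All 4 genes with a match were ones that were not called. They are shown in 30 bases each, with the match in capitals, since this is the letter pattern that background knowledge ties most closely to these genes. The stretches are chr2:64989381-64989410 on the plus strand for SLC1A4, and on the minus strand chr12:46266502-46266531 for SLC38A1, chr13:29595663-29595692 for SLC7A1 and chr19:46784893-46784922 for SLC1A5.
SLC1A4: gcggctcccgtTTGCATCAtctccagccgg
SLC38A1: tcagacccgaaTGATGAAAagggatcagct
SLC7A1: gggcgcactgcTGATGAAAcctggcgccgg
SLC1A5: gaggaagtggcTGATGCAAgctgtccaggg
SLC1A4 holds the pattern on the opposite strand. In SLC1A4, SLC1A5 and SLC38A1 the window belongs to a start inside the gene, and in SLC7A1 to its first start. The pattern begins 7 bases before the start in SLC1A4, 4 before it in SLC38A1 and 97 before it in SLC1A5, and it lies 8 bases after the start in SLC7A1.

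The E-box CACGTG, which MYC and related factors bind, was found in 3 of the 15 windows, beside 7.26% of all windows. It lies in SLC43A1, SLC7A5 and SLC1A5, which were not called, and is shown for SLC43A1 and SLC7A5 at chr11:57515797-57515826 and chr16:87869620-87869649, both on the minus strand.
SLC43A1: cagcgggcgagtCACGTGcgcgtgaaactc
SLC7A5: ggccggacgacgCACGTGctccgagctggg
The ARE pattern TGACNNNGC, the core of the element that NRF2 binds, was found in SLC7A5, SLC7A1 and SLC1A5, and in 13.3% of all windows. The windows of SLC38A2, SLC6A9 and SLC6A14 held none of these 3 patterns, which says only that these letters are absent from the windows. A match in these windows is a description, and binding was not measured.

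The number of called transporters changed with the call rule. At an adjusted p-value under 0.1 the same 3 genes were called, beside 11.1% of all genes, and at 0.01 none of the 10 was, beside 0.954%. With a minimum of 2-fold only SLC6A14 passed, beside 1.80% of all genes. With the adjusted p-value recomputed over expressed genes SLC38A2 and SLC6A9 passed, beside 20.6% of those genes, and SLC6A14 was not tested. Taken relative to the all-gene median, a shift of 0.19, the calls were SLC6A14 and SLC6A9, beside 11.0% of all genes. Relative to the median of expressed genes all 3 were called, beside 7.05%.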

How the data were processed

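Libraries of the 6 samples were made with a directional kit and sequenced from both ends. The authors aligned reads to hg38 with HISAT2 2.1.0, counted them per gene with featureCounts 2.1.1 and fitted OZO against OLO with limma-voom 3.58.1. Scaling factors, filters and strand use in counting are not stated. The deposited log2 values are fold changes and mean log2 CPM, the deposited score column holds the moderated t of limma, and the deposited p-value and adjusted p-value belong to that t. They are columns of the authors' own comparison and are given as such, because the table holds no values per library. No test across libraries was run. The comparison is named treated against control, which was read as OZO minus OLO. The members and gene lists were chosen with earlier results of these data known.

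The adjusted p-value equalled a recomputed Benjamini-Hochberg value over all 28395 genes. Standard errors, 95% intervals (5.02 degrees of freedom for the transporters) and implied reads were computed with Python 3.11.15 and scipy 1.17.1. Library size followed from the lowest mean, and 100% of 6402 low products were odd whole numbers within 0.001. The recovery of depth and the calls were tested on simulated libraries. Lengths came from GENCODE 44, positions and promoter windows from RefSeq GRCh38.p14. By rule, named genes were the 10 transporters, every called gene of the other lists, SLC7A11 and SLC3A2. Cell type markers and some listed genes that were not called (SLC38A4, SLC38A6, SLC38A7, SLC7A6, NEDD4, NEDD4L, ASNS, GLS2 and DDIT4) are named besides, after their values were seen. Alternatives changed the threshold, a 2-fold minimum, a minimum of 10 reads, the centre of the fold changes and the transcript length. 1 gene of the wider lists is not reported here.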

Additional observations from a re-analysis of the deposited data

How the results depend on the processing

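No paired analysis was possible because the table holds the fitted comparison and no values per library, so the replicate block, leaving out a replicate and another scaling or count tool were not run. How far 1 library decides any value is not known here. Of the 10 transporters 3 had an unadjusted p-value under 0.05 in the limma-voom fit, beside 10.1% higher and 9.61% lower over all genes. Of the 3 called transporters 0 passed at an adjusted p-value of 0.01 in that fit, beside 0.954% of all genes. With a 2-fold minimum 1 passed, beside 1.80%. Of the 31 other plasma membrane transporters 5 had an unadjusted p-value under 0.05 in the limma-voom fit, beside those same shares. Of the 2 called among them 1 passed at 0.01, beside 0.954% of all genes, and 0 with a 2-fold minimum, beside 1.80%. Of the 73 genes in the 5 further lists 6 were called, beside 7.04% of all genes. At 0.01 there were 3, beside 0.954%, and at 0.1 there were 10, beside 11.1%. With a 2-fold minimum 1 passed, beside 1.80%. With the adjusted p-value recomputed over genes of 10 or more mean reads 10 passed, beside 20.6% of those genes. Relative to the all-gene median, which takes in the genes without any read, 18 passed, 3 higher and 15 lower, beside 11.0% of all genes. Relative to the median of expressed genes 6 passed, 3 higher and 3 lower, beside 7.05%. These alternatives for the 5 lists were chosen after the data were seen. Under both centrings the 10 fold changes kept their sign, and of their 3 calls only that of SLC38A2 was lost, relative to the all-gene median. There SLC6A15 was lost and SLC7A6, lower, was gained among the other plasma membrane transporters. The longest transcript in place of the canonical one changed 1 level among the 10 transporters, that of SLC1A4, from 9.39 to 7.4 CPM per kilobase. Of the 4 other levels given, tried after the data were seen, SLC3A2 went from 163 to 108, SLC6A15 from 24.7 to 18.4 and SLC6A6 from 28.8 to 28.7, and SLC7A11 kept its value.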

Other observations

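Genes of the wider lists that came just short of the threshold are named here after their values were seen. GLS2, which encodes a mitochondrial enzyme of glutamine breakdown, stood at 21.1 implied reads under OLO and 6.29 under OZO, with a log2 fold change of -1.67 (SE 0.38) and an adjusted p-value equal to 0.0734 in the deposited limma-voom fit. SLC38A6, a plasma membrane relative of SLC38A2, had a log2 fold change of 0.54 (SE 0.13, adjusted p-value 0.0818 in the same fit). SLC38A7, a lysosomal glutamine exporter, had -0.40 (SE 0.09, adjusted p-value 0.0744), and DDIT4, which encodes an inhibitor of mTORC1, had 0.87 (SE 0.22, adjusted p-value 0.0925). When the adjustment took in only the 13773 genes of 10 or more mean reads, these 4 genes passed, at 0.0383 for GLS2, 0.0428 for SLC38A6, 0.0389 for SLC38A7 and 0.0487 for DDIT4 in the limma-voom values.

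The adjusted p-value of 0.249 that SLC43A1, SLC1A5 and SLC7A1 carry is shared by 9616 genes. Of these, 7012 had no read in any library and an unadjusted p-value of 0.133, and the other 2604 had reads. Their unadjusted p-values were 0.0527 for SLC43A1, 0.0827 for SLC1A5 and 0.0938 for SLC7A1 in the limma-voom fit. Within the genes of 10 or more mean reads, the adjusted p-values were 0.146, 0.198 and 0.217, so none of these 3 genes passed.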
